A study of Mus musculus with 90 samples.

Results

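Areas of interest (AOIs) labelled p16 high and p16 low were compared within CA3, a pyramidal cell field of the mouse hippocampus, in the 8 mice that had both. These were 16 of the 90 AOIs of the study and 16 of its 18 CA3 AOIs. RNA was counted with the GeoMx Digital Spatial Profiler and the mouse Whole Transcriptome Atlas, in which light releases probe tags from a chosen area of a tissue section so that they can be sequenced. The sections were 5 µm thick and cut from formalin-fixed, paraffin-embedded brain. Mice 1152, 1157, 1162, 1169 and 1170 had been exposed to chronic social stress (CSS), and mice 1151, 1168 and 1175 were controls. The labels name no strain, allele, sex or age, and the sources used here do not say how an AOI received its p16 label. The p16 high CA3 AOI of CSS mouse 1163 and the p16 low CA3 AOI of control mouse 1182 had no partner and entered no comparison. An AOI pools whatever cells lie within it, so fewer cells of a type and less RNA per cell cannot be told apart.

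CA3 pyramidal neurons receive mossy fibres from the dentate gyrus, excite one another through recurrent branches and drive CA1. CA2 is a narrow field between CA3 and CA1 whose pyramidal neurons carry high Rgs14, Necab2, Pcp4 and Amigo2. p16 is a cyclin-dependent kinase inhibitor encoded by Cdkn2a, a locus that also encodes Arf, and it is widely used as a marker of senescent cells.

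Values are the deposited signal, in which every AOI has the same median over genes, 22.067. Differences are log2(signal + 1), p16 high minus p16 low, with the standard error (SE) of the paired fit. In the 16 AOIs the recovered probe counts ran from 299597 to 1421580 per AOI, the median count per gene from 7 to 49, and the share of genes at or below the negative control probe from 17.3% to 26.1%. The depth differed between the labels: the total was 713020 ± 278520 in p16 high against 874490 ± 335940 in p16 low AOIs (SD, n = 8), higher in p16 high in 2 of 8 mice (exact sign-flip p = 0.03125). Divided by the negative probe, the gene median came to 1.61 ± 0.188 against 1.48 ± 0.129, higher in p16 high in 8 of 8 mice (exact sign-flip p = 0.0078, the smallest that 8 mice allow). Genes of low signal leaned towards p16 low and genes of high signal towards p16 high, with median differences of -0.10, -0.05, 0.06 and 0.21 from the lowest to the highest signal quartile. The part of this lean in any list below was not tested, and each list is given under 2 further scalings for that reason. The median over all genes was 0.04 as deposited, -0.0017 after quantile normalization and -0.09 after scaling to the 75th percentile. Of all 19962 genes, 11224 (56.2%) were higher in p16 high AOIs as deposited and 9918 after quantile normalization, to be set beside the counts of list members below.

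The CA3 label held against field markers. Cpne4, a copine of CA3 neurons, ran from 139 to 395 in the p16 high AOIs and from 109 to 256 in the p16 low AOIs, against 8.28 to 27.2 in 18 CA1 AOIs. Grik4, a kainate receptor subunit of mossy fibre synapses, ran from 66.2 to 179 and from 54.5 to 108, against 7.88 to 25.2 in CA1. Both genes separated every CA3 AOI used from every CA1 AOI. Pou3f1, a transcription factor of CA1 neurons, stayed between 9.13 and 33.1 in the 16 CA3 AOIs and was 252 to 524 in CA1. The unpaired p16 high AOI of mouse 1163 stood apart with a Pou3f1 signal of 85.8. The dentate granule cell gene Prox1 ran from 11.6 to 44.1 in the CA3 AOIs, close to the 8.13 to 32.4 of CA1. Mouse 1175 had the lowest Cpne4 of both groups of CA3 AOIs, at 139 in its p16 high and 109 in its p16 low AOI. Ttr, the abundant transthyretin transcript of the choroid plexus, spread from 6.30 to 548 over the CA3 AOIs.

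**Figure D1:**
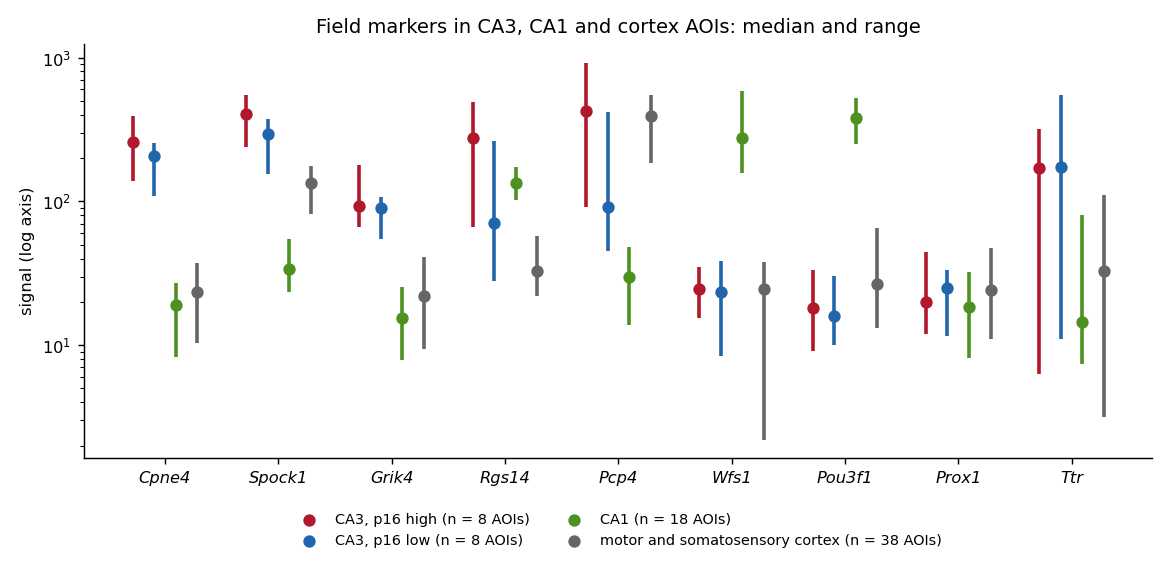
Signal (log axis) of 9 field markers as the median (point) and the lowest to highest value (line) in 8 p16 high and 8 p16 low CA3 AOIs, 18 CA1 AOIs and 38 cortex AOIs. Cpne4 and Grik4 separate CA3 from CA1 and cortex, Wfs1 and Pou3f1 mark CA1, and the CA2 genes Rgs14 and Pcp4 spread widely within CA3.

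Cdkn2a itself did not separate the labels. Its signal in p16 high and p16 low AOIs was 16.05 and 16.8 in mouse 1151, 18.7 and 26.3 in 1168 and 25.1 and 26.1 in 1175, the control mice. In the CSS mice it was 27.1 and 21.1 in 1152, 25.96 and 23.2 in 1157, 25.7 and 18.4 in 1162, 9.46 and 16.6 in 1169 and 12.6 and 24.3 in 1170. It was higher in the p16 high AOI in 3 of 8 mice, and the means were 20.1 ± 6.84 and 21.6 ± 3.99 (SD, n = 8). The Cdkn2a difference was -0.16 (SE 0.18, limma adjusted p = 0.755), and the gene lies at chromosome 4, 89274473 to 89294619, on mm10. Its values of 9.46 to 27.1 lay near the negative probe, which ran from 11.8 to 17.2, so that Cdkn2a RNA was a weak check of the labels in either direction.

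No other cell cycle inhibitor passed the test either. Cdkn1a, which encodes p21 and is induced by p53, differed by -0.41 (SE 0.18, limma adjusted p = 0.332), with means of 23.9 ± 8.24 and 31.1 ± 7.31 (SD, n = 8) and a higher value in 3 of 8 mice. Cdkn2d, which encodes p19INK4d, was higher by 0.30 (SE 0.13, adjusted p = 0.313), and the cyclin gene Ccnd3 by 0.37 (SE 0.17, adjusted p = 0.358). Of 22 genes for cyclin-dependent kinase inhibitors and the cell cycle, 11 were higher and 11 lower, with a median of -0.08, and -0.11 after quantile normalization.

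Over all genes, limma with the mouse as a block called none of 19962 (0%) at an adjusted p under 0.05, and the smallest adjusted p was 0.184. At an unadjusted p under 0.05, 2089 genes were higher in p16 high AOIs (10.5%) and 565 lower (2.83%). That split followed the scaling, with 651 higher and 673 lower after quantile normalization and 739 and 1749 after scaling to the 75th percentile. All 8 mice were higher in 252 genes (1.26%) and lower in 72 genes (0.361%). edgeR's quasi-likelihood test on the recovered counts, with the same block, called 55 genes (0.276%), 51 higher and 4 lower. The limma count turned on CSS mouse 1152. Without it limma called 523 genes higher (2.62%) and 15 lower (0.0751%), whereas leaving out any other single mouse gave none. edgeR called 664 genes without mouse 1152, 168 without 1170, 1 without 1175 and none without any of the other 5. Of the 51 genes that edgeR called higher, 44 were lower in the p16 high AOI of mouse 1152 and 13 in that of mouse 1170.

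Several genes of CA2 pyramidal neurons were among those with the largest differences, although none passed limma's test. In edgeR no gene of the CA2 list passed either, with adjusted p of 0.0636 for Rgs14, 0.0687 for Necab2 and 0.0682 for Pcp4. Rgs14, a regulator of G protein signalling known to restrain plasticity at CA2 synapses, lies at chromosome 13, 55369732 to 55384687. Its signal in p16 high and p16 low AOIs of the control mice was 457 and 30.5 in 1151, 332 and 34.2 in 1168, and 67.7 and 27.9 in 1175. In the CSS mice it was 66.2 and 262 in 1152, 488 and 49.9 in 1157, 380 and 91.9 in 1162, 218 and 141 in 1169, and 72.5 and 227 in 1170. The p16 high AOI thus held more Rgs14 in 6 of 8 mice, 15.01-fold more in mouse 1151, and less in mice 1152 and 1170, by 3.96-fold and 3.13-fold. The ranges of the groups overlapped widely, from 66.2 to 488 and from 27.9 to 262. The Rgs14 difference was 1.33 (SE 0.42, limma adjusted p = 0.195), or 1.12 after quantile normalization. The SE of the fit draws on all genes, and that of Rgs14's own 8 differences was larger, at 0.78 (exact sign-flip p = 0.133). For comparison, Rgs14 ran from 102 to 175 in CA1 AOIs and from 22.1 to 57.0 in cortex. The unpaired AOIs had 375 (p16 high, mouse 1163) and 99.3 (p16 low, mouse 1182).

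Necab2, Pcp4 and Amigo2 had their signs in the same mice as Rgs14. Necab2, a neuronal calcium-binding protein gene, was 479 and 31.5 in mouse 1151, 50.2 and 238 in mouse 1152 and 78.8 and 216 in mouse 1170, with a difference of 1.42 (SE 0.45, adjusted p = 0.195). Pcp4, which encodes a modulator of calmodulin, was 919 and 86.2, 92.3 and 405, and 211 and 417 in the same mice, with a difference of 1.33 (SE 0.40, adjusted p = 0.185). Amigo2, an adhesion protein gene of CA2, is counted here in the CA3 list and not in the CA2 list. It was 152 and 11.6, 22.1 and 79.1, and 31.5 and 52.96 in these mice. The Amigo2 difference was 1.36 (SE 0.39, limma adjusted p = 0.184, edgeR adjusted p = 0.0471). All 3 genes were higher in p16 high in 6 of 8 mice and lower in mice 1152 and 1170. The SEs of their own 8 differences were 0.84 for Necab2, 0.75 for Pcp4 and 0.71 for Amigo2 (exact sign-flip p = 0.125, 0.109 and 0.0859). Stard5, a sterol transfer protein gene, differed by 0.60 (SE 0.24, adjusted p = 0.263) and was lower in p16 high in mouse 1152 alone. The adenylyl cyclase gene Adcy5 differed by 0.65 (SE 0.28, adjusted p = 0.301) and was lower in mice 1152, 1170 and 1175. Of the 11 genes of the CA2 list, 10 were lower in mouse 1152 and 8 in mouse 1170.

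All 11 genes of the CA2 list had a mean difference above 0, with a median of 0.60 against 0.04 over all genes, 0.42 after quantile normalization and 0.47 after scaling to the 75th percentile. Of the 11, 7 were higher at an unadjusted p under 0.05, against 10.5% of all genes. None passed the adjusted test. Without mouse 1152, 5 passed as higher, against 2.62% of all genes. In that mouse 10 of the 11 genes were lower in p16 high, so the count without it is no separate check. The summed signal of the list ran from 393 to 2257 in p16 high and from 273 to 1228 in p16 low AOIs, and 10 of the 11 genes had a mean above the negative probe. The mean difference over the list was 1.90 in mouse 1151, 1.55 in 1168 and 0.37 in 1175, the control mice. In the CSS mice it was -1.08 in 1152, 1.75 in 1157, 1.26 in 1162, 0.24 in 1169 and -0.80 in 1170. The labels do not say where along CA3 an AOI was drawn. With each AOI's mean over the CA2 list as a covariate beside the mouse block, the Rgs14 difference was 0.10, that of Amigo2 0.24 and that of Pcp4 0.14, as must follow for genes in or near the covariate, and limma again called no gene.

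**Figure D2:**
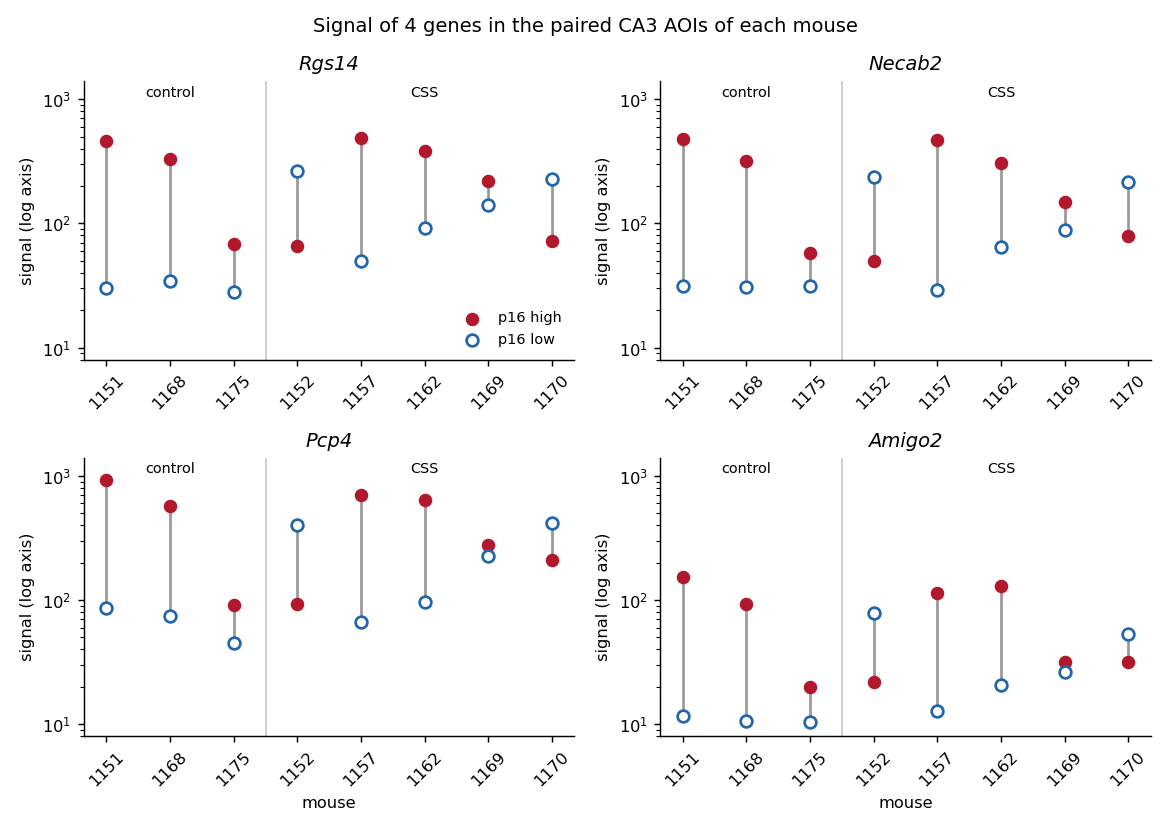
Signal (log axis) of Rgs14, Necab2, Pcp4 and Amigo2 in the p16 high (filled) and p16 low (open) CA3 AOI of each of 3 control and 5 CSS mice. In 6 mice the p16 high AOI is above its partner for all 4 genes, by most in 1151, 1157 and 1168, and in mice 1152 and 1170 it is below.

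Crym and Spink8 also differed between the labels by sizes near those of Rgs14, Necab2, Pcp4 and Amigo2, and Cpne7 differed by less. Crym, which encodes the thyroid hormone-binding mu-crystallin, had a mean signal of 274 ± 183 in p16 high against 97.3 ± 67.1 in p16 low AOIs (SD, n = 8). It differed by 1.48 (SE 0.36, limma adjusted p = 0.184, edgeR adjusted p = 0.0446), from 4.63 in mouse 1151 to -1.07 in mouse 1152, and was higher in p16 high in 6 of 8 mice. The SE of its own 8 differences was 0.67 (exact sign-flip p = 0.070). Cpne7, a calcium-dependent copine gene, differed by 0.91 (SE 0.22, edgeR adjusted p = 0.0446) and was higher in 7 of 8 mice, all but 1152. Spink8, a gene of the Kazal protease inhibitor family, differed by 1.28 (SE 0.35, edgeR adjusted p = 0.0446) and was higher in 5 of 8 mice, all but 1152, 1169 and 1170. The SEs of their own differences were 0.37 and 0.63 (exact sign-flip p = 0.055 and 0.078). In CA1 AOIs Crym ran from 214 to 501 and Cpne7 from 74.8 to 263, so these 2 genes do not mark CA2 alone. Of the CA1 list, 8 of 11 genes were higher with a median of 0.08, which was 0.06 after quantile normalization and turned to -0.05 after scaling to the 75th percentile.

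No gene of the CA3 list passed limma's test. The largest difference of the list was that of Amigo2, 1.36, given above. Spock1, a proteoglycan gene, was 399 ± 115 in p16 high against 290 ± 69.4 in p16 low AOIs (SD, n = 8) and differed by 0.45 (SE 0.12, limma adjusted p = 0.184). The calcium sensor gene Ncald differed by 0.31 (SE 0.11, adjusted p = 0.235), Cpne4 by 0.30 (SE 0.11, adjusted p = 0.255) and Grik4 by 0.28 (SE 0.12, adjusted p = 0.304). After quantile normalization these 3 stood at 0.02, 0.02 and 0.05. Bok, a BCL2 family gene of high CA3 signal, differed by -0.10 (SE 0.13, adjusted p = 0.772). Of the 14 CA3 list genes 8 were higher, near the share of all genes, 56.2%. The median of the list was 0.11, which turned to -0.09 after quantile normalization and -0.03 after scaling to the 75th percentile. Among 8 genes of dentate mossy cells, the excitatory neurons of the hilus, 2 were higher and 6 lower, with a median of -0.32, and -0.17 after quantile normalization.

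Of the genes above the median signal, those with the highest t values differed by 0.46 to 0.75, less than the 4 CA2 genes above. Galnt16, which encodes an enzyme that starts O-linked glycosylation and lies at chromosome 12, 80518471 to 80603898, was higher in all 8 p16 high AOIs. Its signal was 189 and 60.9 in mouse 1151, 114 and 74.7 in 1168, 64.7 and 48.2 in 1175, 81.2 and 80.0 in 1152, 129 and 73.2 in 1157, 142 and 103 in 1162, 85.1 and 57.9 in 1169 and 126 and 75.03 in 1170. The Galnt16 difference was 0.65 (SE 0.14, limma adjusted p = 0.184, edgeR adjusted p = 0.0446), and 0.42 after quantile normalization. The kinase gene Slk was also higher in 8 of 8 mice, from 47.9 to 88.3 against 26.5 to 57.6 (0.65, SE 0.14). So were Acyp2, an acylphosphatase gene (0.64, SE 0.15), Uhrf1bp1l (0.72, SE 0.17), Tusc3, which encodes a subunit of the oligosaccharyltransferase (0.48, SE 0.11), and Gabarap of autophagy and GABA receptor trafficking (0.46, SE 0.11). Mouse 1152 gave the smallest difference of 5 of these 6 genes and 0.31 for Slk.

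The other 9 of the 15 were Arhgef26 (0.75, SE 0.16), Caln1 of the calneurons (0.63, SE 0.14), the transcription factor gene Yy1 (0.62, SE 0.13), the tetraspanin gene Tspan13 (0.62, SE 0.14), the chaperone gene Hspa2 (0.66, SE 0.15), Rprml (0.61, SE 0.14), Dlg3, which encodes the postsynaptic scaffold SAP102 (0.52, SE 0.12), Arpc1a of the Arp2/3 actin complex (0.53, SE 0.12) and Crim1 (0.75, SE 0.17). Each was higher in 7 of 8 mice. For 8 of the 15 genes the p16 high AOI was lower in mouse 1152, and for 1, Tspan13, in mouse 1170. All 15 had an adjusted p of 0.184 in limma, 13 passed in edgeR, and 15 passed in limma without mouse 1152. The 15 were picked by t value over these same AOIs, so neither count is a separate check.

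**Figure D3:**
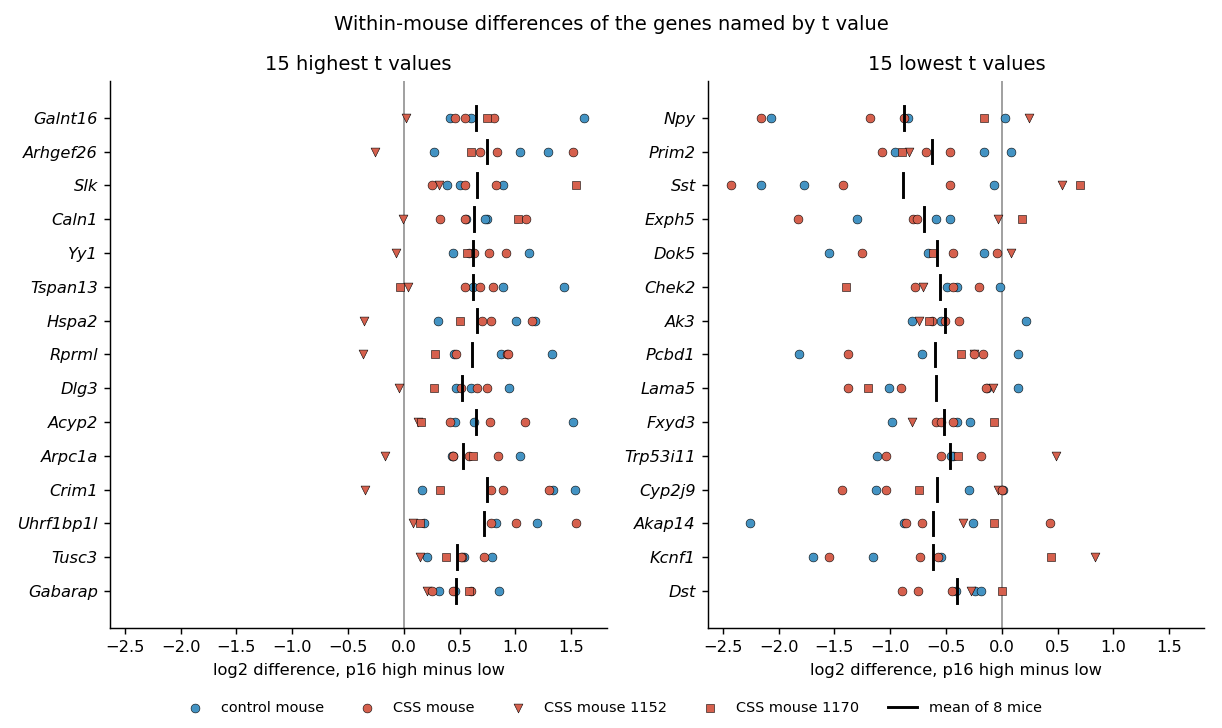
Difference of log2(signal + 1), p16 high minus p16 low, in each of 8 mice (points: 3 control and 5 CSS mice, with mice 1152 and 1170 marked) and its mean (bar) for the 15 genes of highest and the 15 of lowest t value above the median signal. The 15 highest have means of 0.46 to 0.75, and mouse 1152 is below 0 in 8 of them.

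Regulators of the actin skeleton were among the 51 genes that edgeR called higher, a group picked out after the values were seen. No list of all such genes was examined, so the share of them that was called is not known. Tmsb4x, which encodes the actin monomer-binding thymosin beta 4, had a mean signal of 1761 ± 906 in p16 high against 915 ± 354 in p16 low AOIs (SD, n = 8) and differed by 0.85 (SE 0.22, edgeR adjusted p = 0.0446). Cotl1, the coactosin-like gene, differed by 1.12 (SE 0.29, edgeR adjusted p = 0.0471) and Capzb, the capping protein subunit, by 0.70 (SE 0.17, edgeR adjusted p = 0.0446). Arpc5 differed by 0.59 (SE 0.15), Actb by 0.51 (SE 0.14) and Arpc1a by 0.53 as given above. The SEs of their own 8 differences were 0.22, 0.17 and 0.13, and that of Capzb was 0.27. In mouse 1152 the p16 high AOI was lower for all 6, by -0.17 for Arpc1a and -0.38 for Actb at the least and -1.45 for Cotl1 at the most. With the CA2 list mean as a covariate the differences were 0.30 for Tmsb4x and Cotl1, 0.32 for Capzb, 0.27 for Arpc5, 0.28 for Actb and 0.39 for Arpc1a. Also called by edgeR were the striatin-interacting gene Strip2 (1.11, SE 0.30), the scaffold gene Mpp3 (0.74, SE 0.17), the DNA repair gene Parp1 (0.67, SE 0.16), the myristoyltransferase gene Nmt2 (0.54, SE 0.13) and the metallothionein gene Mt3 (0.46, SE 0.11). Nmt2 and Mt3 were higher in 8 of 8 mice.

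Above the median signal, the lowest t value was that of an interneuron peptide gene. Npy, which encodes neuropeptide Y and lies at chromosome 6, 49822710 to 49829507, was 20.1 in p16 high against 87.2 in p16 low in mouse 1151, 32.3 and 58.4 in 1168, and 30.4 and 29.7 in 1175. In the CSS mice it was 24.1 and 20.2 in 1152, 24.7 and 114 in 1157, 36.8 and 84.6 in 1162, 22.1 and 41.4 in 1169, and 63.0 and 70.6 in 1170. It was lower in the p16 high AOI in 6 of 8 mice, and the groups overlapped. The Npy difference was -0.88 (SE 0.21, limma adjusted p = 0.184, edgeR adjusted p = 0.0446). Sst, which encodes somatostatin, was lower in 6 of 8 mice, by most in mouse 1157 (25.96 against 144) and mouse 1151 (94.3 against 426), and higher in mice 1152 and 1170 (227 against 139 in the latter). Its difference was -0.89 (SE 0.25, limma adjusted p = 0.184, edgeR adjusted p = 0.0471). The SEs of the 8 differences of each gene were larger, at 0.32 for Npy and 0.43 for Sst (exact sign-flip p = 0.0469 and 0.0938). With the CA2 list mean as a covariate the differences were -0.44 for Npy and -0.29 for Sst.

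The remainder of the GABAergic list was mixed. Slc32a1, the vesicular GABA transporter gene, differed by -0.41 (SE 0.15, limma adjusted p = 0.232), while Cck, a peptide gene of interneurons and of pyramidal cells, differed by 0.40 (SE 0.13, adjusted p = 0.195). Of 19 interneuron genes, 13 were lower and 6 higher, with a median of -0.09, which was -0.15 after quantile normalization. At an unadjusted p under 0.05, 4 were lower and 1 higher. The summed signal ran from 1037 to 2504 in p16 high and from 960 to 2081 in p16 low AOIs.

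Among the 15 genes of lowest t value, 2 were lower in all 8 mice. Chek2, which encodes a DNA damage checkpoint kinase, was 18.1 ± 5.595 against 26.3 ± 4.10 (SD, n = 8; -0.55, SE 0.17, limma adjusted p = 0.195). Fxyd3, a regulator of the sodium pump, was 17.7 ± 4.95 against 25.4 ± 6.27 (-0.51, SE 0.17, adjusted p = 0.198). The means of both genes lay close to the negative probe, at 13.9 ± 1.62 in p16 high against 14.99 ± 1.33 in p16 low AOIs. Below the median signal, Cyp39a1, an oxysterol hydroxylase gene, had a larger difference than Npy and was lower in 8 of 8 mice (13.1 ± 4.84 against 24.4 ± 3.89; -0.91, SE 0.19, edgeR adjusted p = 0.0471). Its p16 high mean lay below the 13.9 of the negative probe. Dok5, an adaptor of receptor tyrosine kinases, was the last of the 4 genes that edgeR called lower (-0.58, SE 0.17, edgeR adjusted p = 0.0471). The rest were the primase subunit gene Prim2 (-0.62), Exph5 (-0.70), the adenylate kinase gene Ak3 (-0.51), Pcbd1 (-0.60), the laminin gene Lama5 (-0.59), Trp53i11 (-0.46), the cytochrome P450 gene Cyp2j9 (-0.58), the anchoring protein gene Akap14 (-0.62), the potassium channel subunit gene Kcnf1 (-0.62) and the cytoskeletal linker gene Dst (-0.40). None of these passed in limma, with adjusted p up to 0.204, and 3 of the 15, Npy, Sst and Dok5, passed in edgeR. The p16 high means of Prim2, Exph5, Cyp2j9 and Lama5, at 16.9, 16.6, 17.3 and 18.6, also lay near the negative probe.

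Glial lists leaned to p16 low without a called gene. Of 20 astrocyte genes 13 were lower, with a median of -0.17, and -0.27 after quantile normalization. Apoe, a lipid carrier gene of astrocytes, was 245 ± 59.1 in p16 high against 304 ± 89.2 in p16 low AOIs (SD, n = 8) and differed by -0.28 (SE 0.11, limma adjusted p = 0.274). The astrocyte connexin gene Gjb6 differed by -0.55 (SE 0.22, adjusted p = 0.271), with means of 17.2 and 24.95 near the background. Of 20 oligodendrocyte genes 17 were lower, with a median of -0.08, and -0.27 after quantile normalization. Of 17 microglial genes 12 were lower, with a median of -0.12, and -0.14 after quantile normalization, and none of them had an unadjusted p under 0.05. The summed signal of the astrocyte list ran from 1548 to 2948 in p16 high and from 1542 to 3118 in p16 low AOIs, and that of the microglial list from 345 to 407 and from 374 to 463. All 3 medians lay below the all-gene median under each scaling. The part of glial RNA in the other differences was not tested. Of 15 endothelial genes 10 were higher, with a median of 0.04, and 0.02 after quantile normalization, which turned to -0.09 after scaling to the 75th percentile.

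Glutamate receptor genes did not share one direction. Of 17 AMPA and NMDA receptor genes 13 were higher, with a median of 0.28, and 0.03 after quantile normalization. Grin2a, an NMDA receptor subunit gene, was higher in 8 of 8 mice, at 403 ± 106 against 319 ± 78.0 (SD, n = 8; 0.34, SE 0.11, limma adjusted p = 0.195). The subunit gene Grin2b was 432 ± 118 against 333 ± 75.9 (0.36, SE 0.11, adjusted p = 0.188) and the AMPA receptor auxiliary gene Cnih2 706 ± 253 against 505 ± 110 (0.43, SE 0.13, adjusted p = 0.193). The other 4 of the 17 were lower, 3 of them at an unadjusted p under 0.05: Grin2c, Grin2d (-0.42) and Cacng3 (-0.40). Grin2c, a subunit gene of low level here, was 13.7 ± 5.25 against 23.4 ± 5.10 (-0.83, SE 0.24, adjusted p = 0.184). Of 7 kainate receptor genes 3 were higher and 4 lower, with a median of -0.02, -0.18 after quantile normalization and -0.16 after scaling to the 75th percentile. Of the metabotropic receptor list, 7 of 10 genes were higher with a median of 0.17, and 0.02 after quantile normalization. Grm5 differed by 0.41 (SE 0.12, adjusted p = 0.184), and Homer2, which tethers group 1 metabotropic receptors, by 0.66 (SE 0.26, adjusted p = 0.275).

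Genes of synaptic structure and of transmitter release had smaller medians under the other scalings, and those of the scaffold, vesicle and GABA-A receptor lists turned below 0 after quantile normalization. After scaling to the 75th percentile the medians stayed above 0. They were 0.06 for scaffold, 0.06 for vesicle, 0.14 for adhesion and 0.07 for GABA-A receptor genes, against -0.09 over all genes. As deposited, the median over the highest signal quartile was 0.21, beside 0.20, 0.20, 0.28 and 0.21 for these lists. The part of signal level in them was not tested. Of 22 postsynaptic scaffold genes 19 were higher as deposited and 6 after quantile normalization, with medians of 0.20 and -0.06. Camk2b, a subunit of the calmodulin kinase of the postsynaptic density, differed by 0.47 (SE 0.12, limma adjusted p = 0.184). Of 30 synaptic vesicle genes 23 were higher as deposited and 9 after quantile normalization, with medians of 0.20 and -0.06. Syp, the synaptophysin gene, was 1784 ± 669 against 1262 ± 283 (SD, n = 8; 0.45, SE 0.13), and the vesicle genes Sv2b and Syt1 differed by 0.48 (SE 0.13) and 0.39 (SE 0.12). Of 21 synaptic adhesion genes 20 were higher as deposited and 17 after quantile normalization, with medians of 0.28 and 0.09, among them Nlgn3 (0.40, SE 0.11). Of 14 GABA-A receptor genes 11 were higher as deposited, with a median of 0.21 that turned to -0.05 after quantile normalization, among them Gabra5 (0.35, SE 0.13).

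Calcium sensor and channel genes also leaned to p16 high as deposited. Of 25 copine and neuronal calcium sensor genes 18 were higher, with a median of 0.24, and 0.04 after quantile normalization. Hpca, the hippocalcin gene, had a mean signal of 3997 ± 1762 in p16 high against 2493 ± 587 in p16 low AOIs (SD, n = 8) and differed by 0.60 (SE 0.17, limma adjusted p = 0.184, edgeR adjusted p = 0.0471). Its difference was 1.56 in mouse 1151 and -0.57 in mouse 1152. Of 24 genes for calmodulin, calcineurin and calmodulin kinases 20 were higher, with a median of 0.29, and 0.01 after quantile normalization. The nuclear kinase gene Camk4 differed by 0.58 (SE 0.16, adjusted p = 0.184). Of 23 voltage-gated sodium and calcium channel genes 19 were higher as deposited and 10 after quantile normalization, with medians of 0.20 and -0.05. Cacna2d3, a calcium channel accessory gene, differed by 0.60 (SE 0.14, edgeR adjusted p = 0.0471) and the sodium channel gene Scn8a by 0.41 (SE 0.12, limma adjusted p = 0.184). Of 30 potassium and HCN channel genes 27 were higher, with a median of 0.20, and 0.03 after quantile normalization.

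No activity or stress hormone gene passed limma's test. Of 24 immediate early genes, which neurons switch on with activity, 16 were higher as deposited and 9 after quantile normalization, with medians of 0.14 and -0.03. Npas4 was 49.7 ± 11.8 against 39.1 ± 15.7 (SD, n = 8; 0.39, SE 0.16, limma adjusted p = 0.293) and Bdnf 108 ± 39.6 against 83.8 ± 20.3 (0.33, SE 0.14, adjusted p = 0.278). Of 20 genes for corticosteroid receptors and their targets 14 were higher as deposited and 9 after quantile normalization, with medians of 0.16 and -0.02. Nr3c2, the mineralocorticoid receptor gene, was 199 ± 72.8 against 127 ± 31.0 (0.57, SE 0.16, adjusted p = 0.184) and was higher in 7 of 8 mice, with -0.65 in mouse 1152. Fkbp5, a co-chaperone gene that glucocorticoids induce, was 49.8 ± 23.8 against 28.1 ± 7.16 (0.69, SE 0.21, limma adjusted p = 0.184, edgeR adjusted p = 0.0550). Without mouse 1152 both passed in limma, with adjusted p of 0.00392 and 0.0105, which is no separate check. The SEs of the 8 differences of each gene were larger, at 0.23 for Nr3c2 and 0.31 for Fkbp5 (exact sign-flip p = 0.0469 and 0.0703). With the CA2 list mean as a covariate the differences were 0.27 for Nr3c2 and 0.23 for Fkbp5. Ddit4, a glucocorticoid-induced inhibitor of mTOR signalling, was higher in 8 of 8 mice by 0.32 (SE 0.13, adjusted p = 0.279).

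Genes used to define senescent cells lay on both sides of 0 and none passed limma's test. Of 39 genes for secreted factors of senescence 13 were higher and 26 lower, with a median of -0.09, and 0.00 after quantile normalization, and 25 of the 39 had a mean above the negative probe. The growth factor-binding gene Igfbp3 differed by 0.63 (SE 0.18, limma adjusted p = 0.184), the matrix protease gene Mmp14 by 0.49 (SE 0.24, adjusted p = 0.371) and Mmp3 by 0.39 (SE 0.18, adjusted p = 0.348). The chemokine gene Cxcl1 differed by -0.47 (SE 0.20, adjusted p = 0.305). Of 25 genes of p53 and DNA damage 16 were higher as deposited and 7 after quantile normalization, with medians of 0.11 and -0.05, and -0.03 after scaling to the 75th percentile. Atr, which encodes a DNA damage kinase, was 12.7 ± 5.91 against 22.2 ± 4.20 (SD, n = 8; -0.86, SE 0.22, adjusted p = 0.184), with both means near the background. Of 24 genes of the interferon response and antigen presentation 9 were higher and 15 lower, with a median of -0.07, and -0.05 after quantile normalization, and none had an unadjusted p under 0.05.

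Genes of energy metabolism and of the ribosome shared one direction as deposited and not after quantile normalization. All 49 genes of oxidative phosphorylation were higher in p16 high AOIs as deposited and 30 after quantile normalization, with medians of 0.28 and 0.01. All 73 cytosolic ribosomal protein genes were higher as deposited and 9 after quantile normalization, with medians of 0.15 and -0.10. All 23 genes of glycolysis and lactate were higher as deposited and 17 after quantile normalization, with medians of 0.31 and 0.04. These are genes of high signal, and 90.5% of all genes in the highest signal quartile were higher in p16 high AOIs, against 56.2% of all genes. Single members that were higher in 8 of 8 mice included the glycolytic gene Tpi1 (0.45, SE 0.11), the ribosomal gene Rpl5 (0.39, SE 0.11) and the chaperone gene Dnaja1 (0.38, SE 0.11), all with a limma adjusted p of 0.184. Cycs, the cytochrome c gene, differed by 0.42 (SE 0.11) and Ndufa9 of respiratory complex I by 0.43 (SE 0.12). After quantile normalization these 5 differences lay between 0.11 and 0.19. Of 28 heat shock and folding genes 26 were higher as deposited and 17 after quantile normalization, with medians of 0.24 and 0.02. Of 28 lysosomal genes 20 were higher as deposited and 11 after quantile normalization, with medians of 0.13 and -0.04, and -0.0057 after scaling to the 75th percentile.

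**Figure D4:**
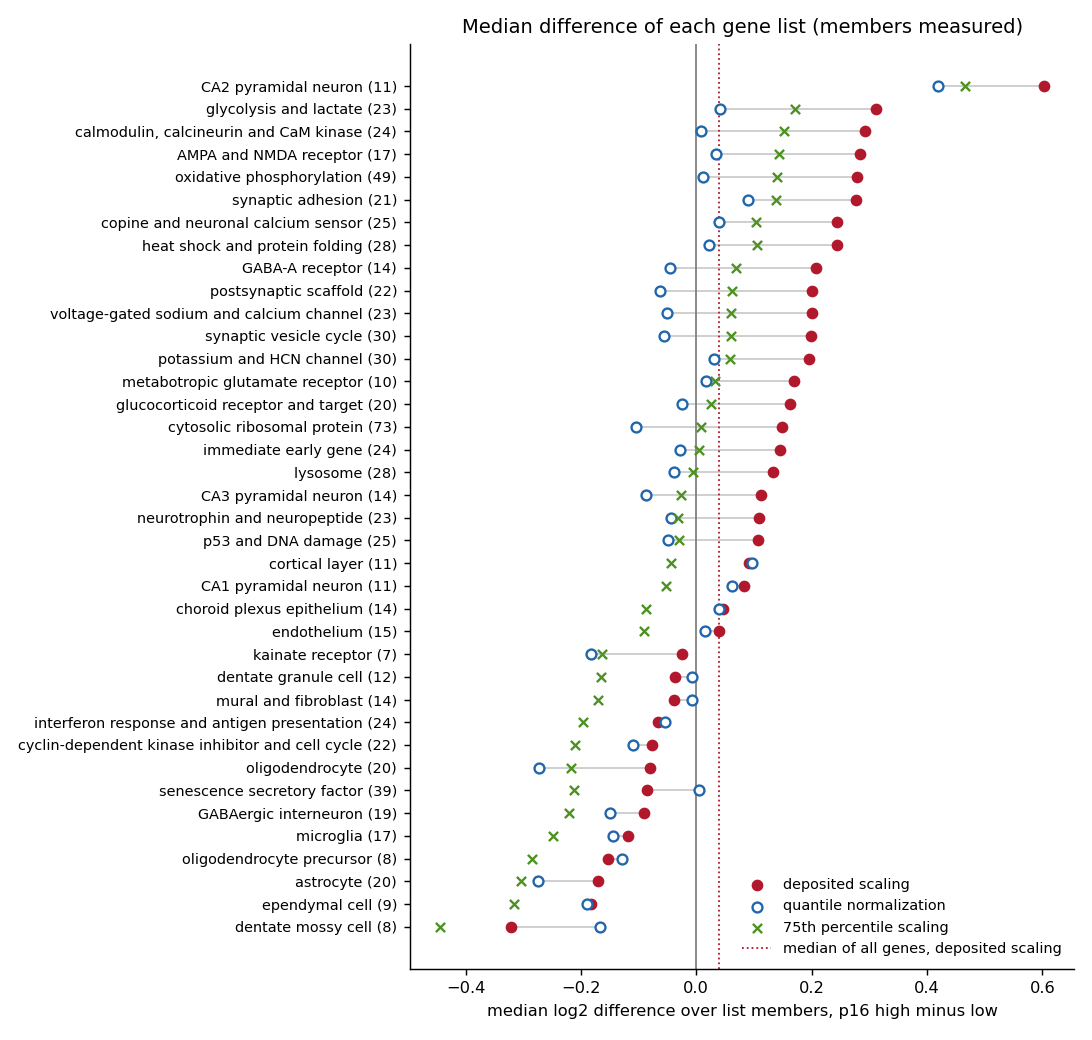
Median difference (log2, p16 high minus p16 low) of each of 38 gene lists with at least 7 measured members, as deposited (filled), after quantile normalization (open) and after scaling to the 75th percentile (crosses). The CA2 list stands at 0.60, 0.42 and 0.47, whereas the medians of the housekeeping, postsynaptic scaffold, adhesion and vesicle lists move towards or past 0 after quantile normalization.

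Whether the p16 difference itself depended on stress was tested as the difference of the within-mouse differences between 5 CSS and 3 control mice. limma called no gene (0%), with 563 at an unadjusted p under 0.05 and a smallest adjusted p of 0.9996. Without control mouse 1175 it called Crym (-3.15) and the axon guidance gene Sema5b (2.24), both with an adjusted p of 0.0458. In the 3 control mice alone limma called 152 genes (0.761%), 135 higher and 17 lower, and 103 of these were also called over 7 mice without mouse 1152. Those 7 mice include the same 3 control mice, so the overlap is no separate check. The 152 became 36 without mouse 1151, 65 without 1168 and 97 without 1175. In the 5 CSS mice alone none were called (0%), with 1374 at an unadjusted p under 0.05. The mean Rgs14 difference was 2.79 in control and 0.46 in CSS mice, and both mice with a negative value were CSS mice. That of Crym was 2.75 and 0.72 (difference -2.03, SE 0.63), that of Spink8 2.50 and 0.55 (-1.96, SE 0.62) and that of Homer2 1.63 and 0.08 (-1.55, SE 0.46), none of which passed the test. By contrast Galnt16 differed by 0.88 in control and 0.52 in CSS mice and Npy by -0.96 and -0.83. All 51 genes that edgeR called higher had a mean above 0 in both groups of mice. They were called over these same CSS and control mice, so this count cannot show whether the p16 difference depended on stress.

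Setting CA3 beside CA1 asked whether the difference was particular to CA3. In the 6 mice with both pairs, limma called 3 genes whose p16 difference was larger in CA3 than in CA1 (0.015%). CSS mice 1169 and 1170 had no CA1 pair, so mouse 1170, where Rgs14 was lower in p16 high, was absent. The CA3 differences in this paragraph are over those 6 mice. Over 8 mice they were smaller, at 1.33 for Rgs14, 1.36 for Amigo2 and 0.89 for Gsto1. Amigo2 differed by 1.89 in CA3 and -0.22 in CA1 (difference 2.11, SE 0.33, adjusted p = 0.0118), and it was larger in CA3 in all 6 mice. Amigo2 was above the negative probe in 2 of 18 CA1 AOIs, where its signal ran from 1.70 to 18.4, so its CA1 difference is one between background values and the contrast does not show that the p16 difference is particular to CA3. Itga7, a laminin-binding integrin gene, differed by 0.75 and -0.43 (1.18, SE 0.21, adjusted p = 0.0406), and Gsto1, a glutathione transferase gene, by 1.27 and 0.13 (1.15, SE 0.21, adjusted p = 0.0406). In CA1 Itga7 was above the negative probe in 16 and Gsto1 in 18 of 18 AOIs, with medians of 30.1 and 30.9. None were called after quantile normalization, 9 with log2(signal + 10), and 134 without mouse 1152. Leaving out one of the other mice gave none or 1. The Rgs14 difference was 1.95 in CA3 and 0.08 in CA1 (1.86, SE 0.39, adjusted p = 0.163) and that of Npy -0.995 and 0.05 (-1.04, SE 0.23, adjusted p = 0.186).

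Against motor and somatosensory cortex, in 8 mice, limma called no gene (0%), with 1533 at an unadjusted p under 0.05 and a smallest adjusted p of 0.611, and 44 without mouse 1152. Among the genes of highest t value were Strip2 (1.11 in CA3 and -0.37 in cortex, where it was above the negative probe in 27 of 38 AOIs), Caln1 (0.63 and -0.09) and Yy1 (0.62 and -0.03). Among the lowest were Sst (-0.89 and 0.14), Dok5 (-0.58 and 0.16) and Exph5 (-0.70 and 0.10).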

How the data were processed

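The deposited signal values of 19962 genes and a negative control probe were used as the authors scaled them, to a common gene median per AOI. The genome build mm10 is given per the submitters' processing notes; the sources used here do not state the read processing. Gene coordinates come from RefSeq's GRCm38.p6 table, which matched 19822 genes (99.3%). Paired CA3 AOIs were compared with limma 3.58.1 in R 4.3.3 on log2(signal + 1), 2-sided, with the mouse as a fixed block, eBayes with a trend and Benjamini-Hochberg adjustment over all genes. Fold changes on that scale understate genes of low signal. Probe counts, whole within 0.01 for at least 99.985% of the gene values of each AOI, were recovered for edgeR 4.0.16. The pairing rests on the mouse number in the labels, and paired AOIs are from the same animal. Deviations of paired AOIs correlated at a median of 0.04, with 2 of 8 pairs above 0.1. Interactions were fitted to within-mouse differences, with the trend on signal level. Single technical values had exact sign-flip tests, all 2-sided. Named were Cdkn2a, Cdkn1a, called genes, the 15 highest and 15 lowest t values above the median signal (5 and 5 for interactions), and up to 4 members of each of 39 lists by p; others were chosen after their values were seen. Members, lists and tests were chosen with earlier results of these data known. Scripts were tested on simulated data.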

Additional observations from a re-analysis of the deposited data

Results flagged for a closer look

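Of 148 per-mouse series of differences (p16 high minus p16 low, log2, 8 mice) examined for a single mouse far from the others, 7 had one by Dixon's ratio, and chance gives about 1 in 20. The sterol transfer gene Stard5 was -1.54 in CSS mouse 1152 and 0.13 to 1.61 in the other 7 mice, and the glutamate receptor gene Grm5 was -0.22 in the same mouse and 0.31 to 0.73 elsewhere. Grin2c was -2.84 in CSS mouse 1170 against -1.22 to 0.18, where its signal was 3.15 in the p16 high AOI and 28.7 in the p16 low AOI. The median of the oligodendrocyte precursor list was 0.44 in mouse 1170 against -0.41 to -0.02. Bdnf was 1.32 in CSS mouse 1169 against -0.04 to 0.54. Ak3 was 0.22 in control mouse 1175 against -0.80 to -0.38. The median of the p53 and DNA damage list was 0.37 in control mouse 1151 against -0.08 to 0.10.

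The p16 difference was larger in CA3 than in CA1 for 3 genes by a limma test of the difference itself in 6 mice: Amigo2 by 2.11, Itga7 by 1.18 and Gsto1 by 1.15. CSS mice 1169 and 1170 had no CA1 pair and were absent. Amigo2 was above the negative probe in 2 of 18 CA1 AOIs, so its CA1 difference is one between background values.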

How the results depend on the processing

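The count of genes called between p16 high and p16 low CA3 AOIs was 0 as fitted, with no replicate block, with log2(signal + 10), with genes above the median signal alone, with quantile normalization or 75th percentile scaling, with either covariate, with eBayes without a trend and with robust eBayes. It was 55 in edgeR and 0 to 538 when each mouse was left out. The paired and the unpaired fit thus gave the same count of 0. The interaction with stress gave 0 to 2 when mice were left out, the control mice alone 36 to 97, CA3 against CA1 0 to 134 and CA3 against cortex 0 to 44. CA3 against CA1 gave 0 after quantile normalization and 9 with log2(signal + 10). The CA2 covariate, robust eBayes, edgeR without each mouse and the counts at unadjusted p were added after seeing the data.

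Among the single genes named, 13 values changed sign. With the CA2 list mean as a covariate these were Homer2 (-0.042), Adcy5 (-0.089) and Bok (0.10), and after quantile normalization Cdkn1b (-0.0042). With signal over background as a covariate they were Ncald (-0.012), Cpne4 (-0.031), Cdkn2d (-0.035), Igfbp3 (-0.038), Cdkn1b (-0.053), Bdnf (-0.15), Cyp2j9 (0.13), Cdkn2a (0.17) and Lama5 (0.20). Depth limits genes near the negative probe most, since the shallowest AOI had a median of 7 counts per gene.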

Other observations

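Haemoglobin transcripts, a sign of blood in an AOI, varied widely under both labels. The Hba-a1 difference was -0.28, with an SE of its own 8 differences of 0.78 (exact sign-flip p = 0.711). With the CA2 list mean as a covariate it was -1.10. So wide a spread cannot show whether Hba-a1 depends on the label. Hba-a1 was 177 in the p16 high and 21.0 in the p16 low AOI of mouse 1151, 610 and 121 in mouse 1157, and 34.7 and 472 in mouse 1170, and it was higher in p16 high in 3 of 8 mice. The choroid plexus list differed by a median of 0.05, which was 0.04 after quantile normalization and turned to -0.09 after scaling to the 75th percentile, and its summed signal ran from 233 to 599 in p16 high and from 249 to 853 in p16 low AOIs.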
